A study of Mus musculus with 6 samples.

Results

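The JAK-STAT pathway was followed through 42 genes for cytokine receptor chains, Janus kinases, STAT transcription factors, their inhibitors of the SOCS and PIAS families, and genes that STATs are known to induce. A member was any probe whose gene symbol, current or former, was on this list and that was detected (p below 0.05 against background) on 3 or more of the 6 arrays. The array carried 88 probes of these genes, of which 55 passed in 35 of the 42 genes, out of 17855 probes and 12262 genes that passed on the whole array. Expression was measured in total RNA of fetal liver at embryonic day E13.5, in mice with the strain label C57/Bl6:129Sv. In the double transgenic group (3 arrays) R26-LSL-KITD816V was combined with Vav-iCre. R26-LSL-KITD816V is an allele of the ROSA26 locus, whose registered name also carries GFP, from which a mutant of the receptor KIT is made once Cre has removed a stop cassette, and the D816V change keeps the KIT kinase active without its ligand. Vav-iCre makes Cre recombinase under Vav sequences, which are active mainly in blood cells, so other liver cells mostly keep the cassette. The control group (3 arrays) held single transgenic livers, with Vav-iCre alone on replicate 1 and R26-LSL-KITD816V alone on replicates 2 and 3. Whether the arrays held separate embryos is not given in the labels, so the spread behind the p-values may be partly or wholly technical. All arrays lay on 1 chip, each group on its own positions, so position and group cannot be told apart.

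Cytokines such as erythropoietin, interleukins and interferons bind receptor chains that have no kinase of their own. Janus kinases bound to the chains phosphorylate the receptor and then STAT proteins, which enter the nucleus and switch on target genes, among them the SOCS genes that shut the signal off. In fetal liver the best known of these routes runs from the erythropoietin receptor through JAK2 and STAT5 in maturing red cells, and active KIT mutants are known to engage STAT5 as well.

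Levels below are background-corrected, quantile-normalized log2 intensities, differences are double transgenic minus control on that scale, and adjusted p-values come from limma over all 12262 genes. Arrays detected 17249 to 17873 of 45281 probes. Markers of erythroid cells (13 of 15 listed) and hepatoblasts (17 of 20) were measured, as fits the tissue label. All 17 measured hepatoblast and hepatocyte markers were lower in the double transgenic livers (adjusted p below 0.05). Their summed linear intensity was 40367 to 69835 in double transgenic livers and 169609 to 209373 in controls. Of 15 macrophage markers 10 fell and none rose, with sums of 2726 to 5212 in double transgenic livers and 10390.0 to 10504 in controls. Of 13 erythroid markers 1 fell, with sums of 121246 to 148756 in double transgenic livers and 162040.0 to 168345 in controls. Of the mast cell markers 3 of 10 were measured, 1 higher and 1 lower. The higher one, Prss34, was detected on 3 double transgenic and 0 control arrays, so it was kept only through the group where it is high. Of 10 measured endothelial markers 1 fell, and no neutrophil, lymphoid, megakaryocyte or mesenchymal marker passed. In whole liver RNA, fewer cells of a type and less RNA per cell cannot be told apart, and the part of these markers in the results below was not tested. Kit stood at 10.19, 10.11 and 9.63 in double transgenic replicates 1 to 3 and at 8.87, 9.32 and 9.42 in control replicates 1 to 3, groups that did not overlap, and did not pass (difference 0.77, adjusted p = 0.0816). A dimmer second Kit probe stood at 5.57, 5.92 and 5.75 in double transgenic livers and 4.90, 5.63 and 5.74 in controls, which overlapped (0.33, adjusted p = 0.501 among all kept probes). The brighter probe passed with median scaling (0.90, adjusted p = 0.0473) and with array weights (0.63, adjusted p = 0.0355). Whether either probe reads the transgene is not known here.

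Promoters of the inhibitors and STAT-induced genes are shown because STAT dimers bind the letters TTCNNNGAA, where N is any base and both strands read alike. In the windows of RefSeq (GRCm38.p6), which run from 250 bases before to 50 bases after a start site, matches are in capitals. Cish and Socs3 are the members that fell, and Bcl6, shown because it held the most matches among the members, did not pass the test.
Cish, chr9:107296409-107296708, + strand: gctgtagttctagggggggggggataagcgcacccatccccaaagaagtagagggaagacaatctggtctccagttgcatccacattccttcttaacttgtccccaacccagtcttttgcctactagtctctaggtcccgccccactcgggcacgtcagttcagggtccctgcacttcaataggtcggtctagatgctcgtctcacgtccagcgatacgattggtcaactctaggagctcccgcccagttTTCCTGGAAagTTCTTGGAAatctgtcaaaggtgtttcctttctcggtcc
Socs3, chr11:117969317-117969616, - strand: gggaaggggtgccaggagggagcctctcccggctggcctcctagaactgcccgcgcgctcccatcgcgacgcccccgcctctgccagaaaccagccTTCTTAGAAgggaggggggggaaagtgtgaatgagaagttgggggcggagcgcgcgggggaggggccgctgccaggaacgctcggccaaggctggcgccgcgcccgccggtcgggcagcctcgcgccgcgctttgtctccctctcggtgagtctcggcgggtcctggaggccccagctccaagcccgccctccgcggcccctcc
Bcl6, chr16:23981234-23981533, - strand: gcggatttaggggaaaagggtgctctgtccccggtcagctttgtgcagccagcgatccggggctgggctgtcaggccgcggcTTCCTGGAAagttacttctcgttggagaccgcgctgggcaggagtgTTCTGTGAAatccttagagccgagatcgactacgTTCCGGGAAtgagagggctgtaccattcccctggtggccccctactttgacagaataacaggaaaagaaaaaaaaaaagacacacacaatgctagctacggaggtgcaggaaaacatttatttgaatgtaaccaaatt
The Cish window holds a pair of matches at the start of the transcript, TTCCTGGAA from base 1 and TTCTTGGAA from base 12. The Socs3 window holds TTCTTAGAA, which begins 154 bases upstream of the start site, and the Bcl6 window shown holds TTCCTGGAA, TTCTGTGAA and TTCCGGGAA. Of 35 windows of 27 measured members, 6 (17.1%) held TTCNNNGAA, compared with 728 of 10576 windows (6.88%) of all measured genes. Over all 32851 windows the share was 8.3%. Counted by gene, 5 of the 27 members (18.5%) held a match, against 8.29% of measured genes with a window. The members include genes chosen because STATs are known to induce them, so a higher share is no support for enrichment. Windows of Prlr and Ifnar2, which did not pass the test, also held a match, as did a second Bcl6 window. The windows of Stat5a and of Pim1 held no match, and Socs7, Socs2 and Osm had no window. A match is a description of the sequence and does not show that a STAT binds there.

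Across the pathway, 4 of 35 measured members changed at an adjusted p below 0.05, and the SOCS family held 3 of them. Socs7 and Stat5a rose, and Socs3 and Cish fell. Socs7 was kept by the detection filter only through the double transgenic arrays, where it is high, so its place among the 4 is no support for a change in the pathway. Among all 12262 genes 8.93% changed, 2.53% upward and 6.4% downward, so the members' 4 of 35 lay near the background. Groups did not overlap for 8 members (4 higher and 4 lower in double transgenic livers), against 28.5% of all genes. The median difference was 0.15 over the 35 members and 0.07 over all genes, and 20 members lay above and 15 below 0. Of all 12262 genes 7058 lay above 0 and 5204 below, so the members' split was near that of all genes. An unadjusted p below 0.05 was reached by 9 members and by 2795 of all 12262 genes. These counts describe members that passed the detection filter, and the other 7 are accounted for below.

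**Figure D1:**
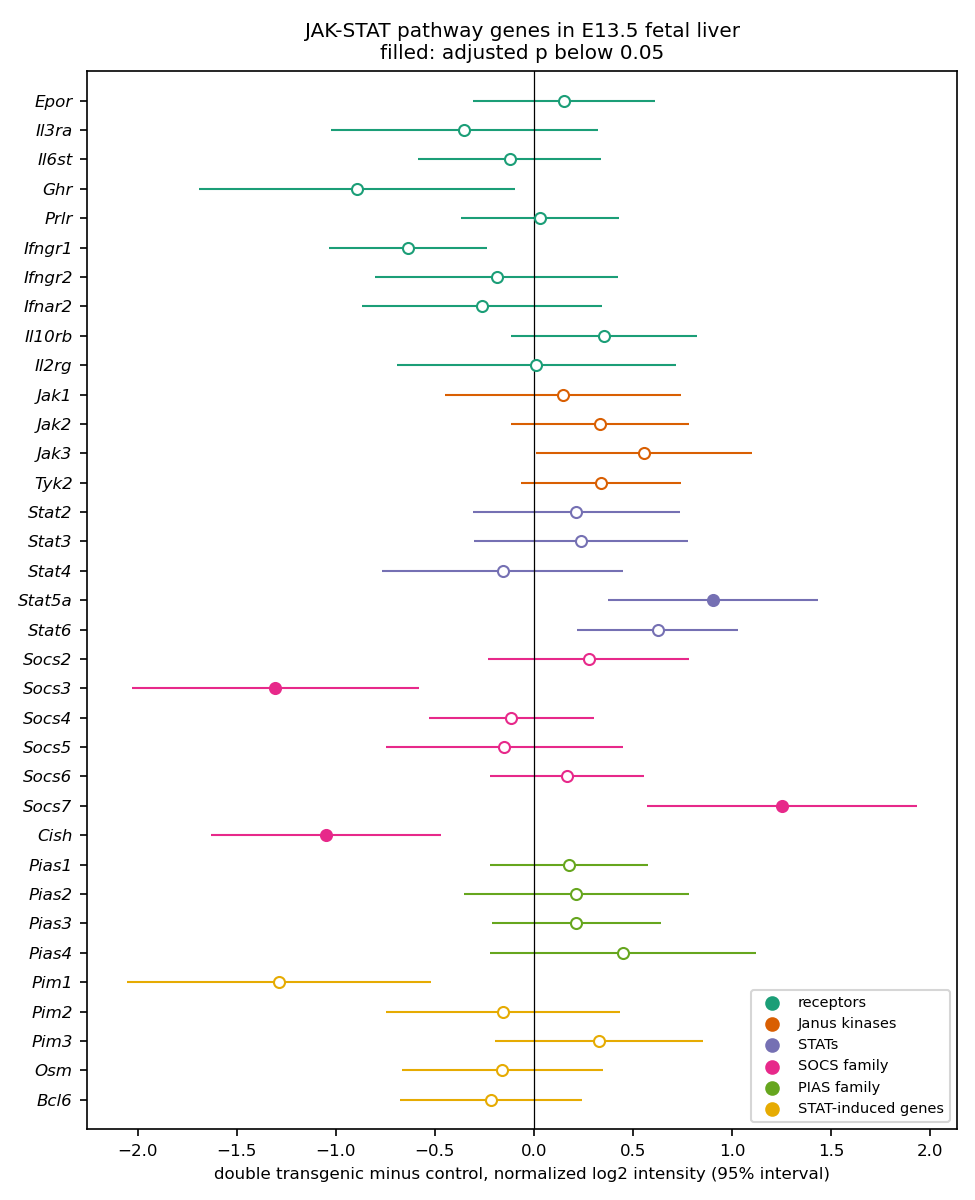
Difference of each of the 35 measured members, double transgenic minus control, in normalized log2 intensity on the x axis, with its 95% interval from limma; filled points passed an adjusted p of 0.05. Socs7 (1.25) and Stat5a (0.91) lie right of 0 and Socs3 (-1.31) and Cish (-1.05) left of it, while most other members have intervals that cross 0.

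None of the 10 measured receptor chains passed the test (0 of 10), against 8.93% of all genes, so the count is near the background. An unadjusted p below 0.05 was reached by 2 chains and by 2795 of all 12262 genes. The median difference of the chains was -0.15. Epor, the erythropoietin receptor, stood at 10.50, 10.93 and 10.96 in double transgenic livers and 10.45, 10.78 and 10.71 in controls. In both groups replicate 1 was lowest, and the groups overlapped. The difference of 0.15 had a 95% interval of -0.31 to 0.61 (adjusted p = 0.702). Il6st encodes gp130, the shared chain of the IL-6 family. It stood at 6.32, 6.14 and 6.52 in double transgenic livers and 6.44, 6.20 and 6.70 in controls, which overlapped (difference -0.12, adjusted p = 0.77). Replicate 2 was lowest in both groups.

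The receptor closest to the threshold was Ifngr1, the ligand-binding chain of the interferon gamma receptor. Its levels were 7.44, 7.18 and 7.40 in double transgenic livers and 8.10, 7.86 and 7.98 in controls. Every double transgenic array lay below every control array, with a difference of -0.64 (SE 0.17, 95% interval -1.04 to -0.24), which did not pass (adjusted p = 0.062). It passed once replicate number entered the fit as a block (adjusted p = 0.0329). Its partner chain Ifngr2 differed by -0.19 (adjusted p = 0.728), with its 3 probes at -0.31 to -0.19. Ifnar2, a chain of the type I interferon receptor, differed by -0.26 (adjusted p = 0.607). Il10rb, shared by receptors of the IL-10 family and of lambda interferons, differed by 0.35 (adjusted p = 0.352).

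Ghr, the growth hormone receptor, is made by hepatocytes. It stood at 8.90, 7.46 and 8.13 in double transgenic livers and at 9.41, 8.89 and 8.86 in controls. The groups overlapped at double transgenic replicate 1, and the difference of -0.89 (SE 0.35) did not pass (adjusted p = 0.171). In the blocked fit it passed (adjusted p = 0.0416), as it did when double transgenic replicate 1 was left out (-1.26, adjusted p = 0.0248). The other kept probes of Ghr differed by -0.88 and -0.47. The hepatocyte markers above moved in the same direction. Prlr, the prolactin receptor, differed by 0.03 (adjusted p = 0.941). Il3ra, the specific chain of the interleukin 3 receptor, differed by -0.35 (adjusted p = 0.527). Il2rg, the common gamma chain of lymphoid cytokine receptors, differed by 0.01 (adjusted p = 0.988) and was detected on 2 of 3 double transgenic and 3 of 3 control arrays.

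Of the 5 receptor genes that did not pass the detection filter, Csf2rb encodes the common beta chain of the IL-3, IL-5 and GM-CSF receptors and Csf2rb2 the mouse beta chain specific to IL-3. Of 3 Csf2rb probes, 1 was detected on 1 control array and the others on none. The single probe each of Csf2rb2, Ifnar1 and Il4ra was detected on 0 of 6 arrays. Lifr, the receptor for leukaemia inhibitory factor, had 3 probes, of which 1 was detected on 1 control array. A probe below detection gives no level, so these genes have no comparison here.

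The 4 Janus kinases all lay above 0, as did 7058 of all 12262 genes, and none passed, against 8.93% of all genes. Their median difference was 0.34. Jak2, the kinase of the erythropoietin receptor, stood at 9.83, 10.04 and 10.21 in double transgenic livers and 9.95, 9.55 and 9.59 in controls. Control replicate 1 lay within the double transgenic range. The difference was 0.33 (95% interval -0.12 to 0.78, adjusted p = 0.36), and a second probe gave 0.38. Jak1, which serves interferon, gp130 and common gamma chain receptors, stood at 6.48, 6.64 and 7.21 in double transgenic livers and 6.91, 6.75 and 6.23 in controls. Its highest value was on double transgenic replicate 3 and its lowest on control replicate 3 (difference 0.15, adjusted p = 0.786). Jak3, the partner of the common gamma chain, differed by 0.56 (adjusted p = 0.209) with a second probe at 0.54. It passed without double transgenic replicate 1 (0.78, adjusted p = 0.0447). Tyk2, a kinase of interferon and IL-12 receptors, differed by 0.34 (adjusted p = 0.295) with groups that did not overlap.

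Among 5 measured STATs, Stat5a rose and 4 did not pass, while 8.93% of all genes changed, 2.53% upward. STAT5A is one of the closely related STAT5 proteins that carry erythropoietin and KIT signals. Stat5a stood at 8.42, 8.48 and 8.13 in double transgenic livers and at 7.04, 7.47 and 7.80 in controls. The groups did not overlap, and the lowest value was that of the Vav-iCre control, replicate 1. The means were 8.34 ± 0.19 in double transgenic livers and 7.44 ± 0.38 in controls (SD, n = 3 each), a 1.87-fold difference (0.91, SE 0.23, adjusted p = 0.0478). Its dimmer second probe gave 6.81, 6.46 and 6.09 in double transgenic livers and 6.37, 6.07 and 6.20 in controls, which overlapped (0.24, adjusted p = 0.584 among all kept probes). The call held without control replicate 3 (1.09, adjusted p = 0.0486) and was lost without any other single array, with adjusted p up to 0.16 without double transgenic replicate 2 and 0.0925 without control replicate 1. The call was also lost with cyclic loess (0.78, adjusted p = 0.0822), with trend and robust moderation (adjusted p = 0.0521), when dim probes were kept (adjusted p = 0.0904) and with the mean of both probes (0.57, adjusted p = 0.121). The probe of Stat5b, its neighbour on chromosome 11, was detected on none of the 6 arrays.

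Stat6, the STAT of the IL-4 receptor, was the next closest. It stood at 7.40, 7.71 and 7.45 in double transgenic livers and at 6.78, 6.91 and 6.99 in controls. All double transgenic values were higher, and the difference of 0.62 (SE 0.18) did not pass (adjusted p = 0.0695), but did in the blocked fit (adjusted p = 0.0422). Stat3, which carries IL-6 and LIF signals, stood at 8.10, 7.83 and 8.48 in double transgenic livers and 7.62, 8.20 and 7.87 in controls. The groups overlapped (difference 0.24, adjusted p = 0.598), and its 3 probes lay between 0.07 and 0.27. Stat2, a partner in type I interferon signalling, differed by 0.21 (adjusted p = 0.625). Stat4, the STAT of IL-12, differed by -0.16 (adjusted p = 0.774) and was detected on 2 arrays of each group.

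**Figure D2:**
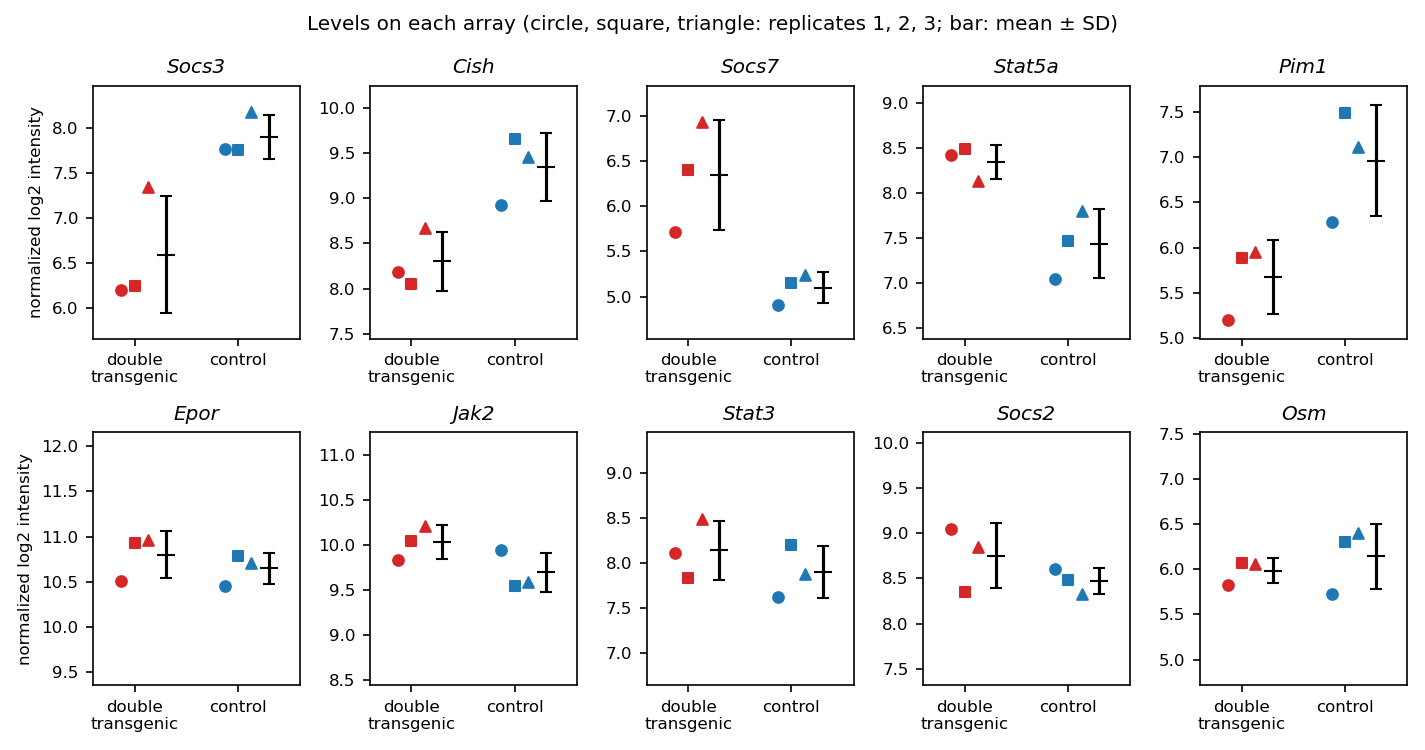
Normalized log2 intensity (y axis, the same height in every panel) of 10 members on each array, with double transgenic livers in red and controls in blue, circle, square and triangle for replicates 1, 2 and 3, and the mean ± SD as a black bar. The groups are apart for Socs3, Cish, Socs7, Stat5a and Pim1 in the upper row and overlap for Epor, Jak2, Stat3, Socs2 and Osm in the lower row.

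Of 7 measured members of the SOCS family, Socs3 and Cish fell, Socs7 rose and 4 did not pass. Among all genes 8.93% changed, 2.53% upward and 6.4% downward. Socs7 was kept only through the double transgenic arrays, so its call is no support for a change in the family. SOCS3 blocks signalling from gp130 receptors and also acts on the erythropoietin and G-CSF receptors. Socs3 stood at 6.20, 6.24 and 7.34 in double transgenic livers and at 7.76, 7.76 and 8.18 in controls. All double transgenic values were lower, and replicate 3 was the highest of each group. The means were 6.59 ± 0.65 in double transgenic livers and 7.90 ± 0.24 in controls (SD, n = 3 each), which is 2.47-fold lower (difference -1.31, SE 0.32, adjusted p = 0.0385). Without double transgenic replicate 3 the difference was -1.68 (adjusted p = 0.0092). Without any other single array the call was lost, with adjusted p of 0.0729 and 0.138 after omission of double transgenic replicate 1 and 2, 0.0668 without control replicate 1, 0.0973 without control replicate 2 and 0.137 without control replicate 3. Without background correction the difference was -0.71 (adjusted p = 0.052), as it was in the authors' value table, and when dim probes were kept the adjusted p was 0.112.

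CISH is an inhibitor best known as a target of STAT5 downstream of erythropoietin. Cish stood at 8.18, 8.05 and 8.68 in double transgenic livers and at 8.93, 9.65 and 9.46 in controls. All double transgenic values were lower, and the Vav-iCre control was the lowest control. The means were 8.30 ± 0.33 in double transgenic livers and 9.35 ± 0.37 in controls (SD, n = 3 each), 2.07-fold lower (difference -1.05, SE 0.25, adjusted p = 0.0386). The call held when control replicate 1 (-1.26, adjusted p = 0.0207) or double transgenic replicate 3 (-1.24, adjusted p = 0.0385) was left out. It was lost without double transgenic replicate 1 (adjusted p = 0.068) or 2 (adjusted p = 0.142) and without control replicate 2 (adjusted p = 0.159) or 3 (adjusted p = 0.135). It was lost as well with median scaling (-0.94, adjusted p = 0.0516) and when dim probes were kept (adjusted p = 0.0894). Marker sums of hepatocytes, macrophages and erythroid cells were lower as well, and a link of either fall to any of them was not tested.

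SOCS7, a member with a longer amino-terminal part that is known to bind signalling adaptors, went the other way. Socs7 stood at 5.72, 6.40 and 6.94 in double transgenic livers and at 4.91, 5.15 and 5.24 in controls. All double transgenic values were higher, the means being 6.35 ± 0.61 in double transgenic livers and 5.10 ± 0.17 in controls (SD, n = 3 each) (difference 1.25, SE 0.30, adjusted p = 0.0356). Its second probe gave 5.48, 6.20 and 6.56 in double transgenic livers and 5.06, 5.44 and 4.96 in controls, also without overlap (0.93, adjusted p = 0.0974 among all kept probes). Both probes were detected on 3 of 3 double transgenic and 1 of 3 control arrays, so the gene was kept only through the group in which it is high. Most control values were not above background, and the difference has no firm size, being 0.44 without background correction (adjusted p = 0.103), 0.78 at an offset of 50 (adjusted p = 0.0654) and 1.09 over both probes (adjusted p = 0.0503). The call held without double transgenic replicate 1 (1.57, adjusted p = 0.0042) and was lost without any other single array, with adjusted p between 0.0847 without control replicate 3 and 0.113 without double transgenic replicate 2.

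Socs2, an inhibitor of growth hormone signalling and another STAT5 target, stood at 9.05, 8.35 and 8.85 in double transgenic livers and 8.61, 8.48 and 8.33 in controls. Double transgenic replicate 2 lay within the control range (difference 0.28, 95% interval -0.23 to 0.78, adjusted p = 0.502). Socs4, Socs5 and Socs6, less studied members linked to growth factor receptors, differed by -0.11, -0.15 and 0.17 (adjusted p = 0.763, 0.784 and 0.608). The probes of Socs4 lay on both sides of 0, at -0.11 and 0.20. Socs1, which inhibits interferon signalling, was detected on 1 double transgenic array and no control array and has no comparison here.

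The 4 PIAS genes encode ligases for the small modifier SUMO that bind STATs and other transcription factors. All 4 differences lay above 0, as did those of 7058 of all 12262 genes, with a median of 0.21. None passed (0 of 4 at an unadjusted p below 0.05), against 8.93% of all genes. Pias4 differed by 0.45 (adjusted p = 0.409), and its Vav-iCre control stood at 7.55, below 8.51 and 8.52 in the other controls. Pias1, Pias2 and Pias3 differed by 0.18, 0.21 and 0.21 (adjusted p = 0.599, 0.659 and 0.543). A second probe of Pias3 lay at -0.03.

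Of 5 genes known to be induced by STATs none passed in the gene fit, against 8.93% of all genes. An unadjusted p below 0.05 was reached by 1 of them. That gene was Pim1, a survival kinase. Pim1 stood at 5.20, 5.88 and 5.95 in double transgenic livers and at 6.28, 7.49 and 7.12 in controls. All double transgenic values were lower, and replicate 1 was the lowest in each group. The difference was -1.29 (SE 0.34, 95% interval -2.05 to -0.52), at an adjusted p of 0.0503 over genes and 0.0498 over all kept probes. Its second probe gave 5.38, 5.58 and 6.01 in double transgenic livers and 5.61, 5.02 and 5.57 in controls, which overlapped with the opposite sign (0.26, adjusted p = 0.589). The first probe passed in the blocked fit (adjusted p = 0.00703) and without control replicate 1 (-1.63, adjusted p = 0.0137), and the mean of both probes was -0.51 (adjusted p = 0.21).

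Pim2 and Pim3, related kinases, differed by -0.15 (adjusted p = 0.773) and 0.33 (adjusted p = 0.441). Pim2 was detected on 1 of 3 double transgenic and 2 of 3 control arrays. Osm encodes oncostatin M, a cytokine of the IL-6 family and a STAT5 target. It stood at 5.82, 6.08 and 6.06 in double transgenic livers and 5.73, 6.30 and 6.40 in controls. The double transgenic values lay within the control range (difference -0.16, adjusted p = 0.723). Bcl6, a transcriptional repressor that STAT5 is known to switch off and STAT3 to switch on, differed by -0.22 (adjusted p = 0.574).

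**Figure D3:**
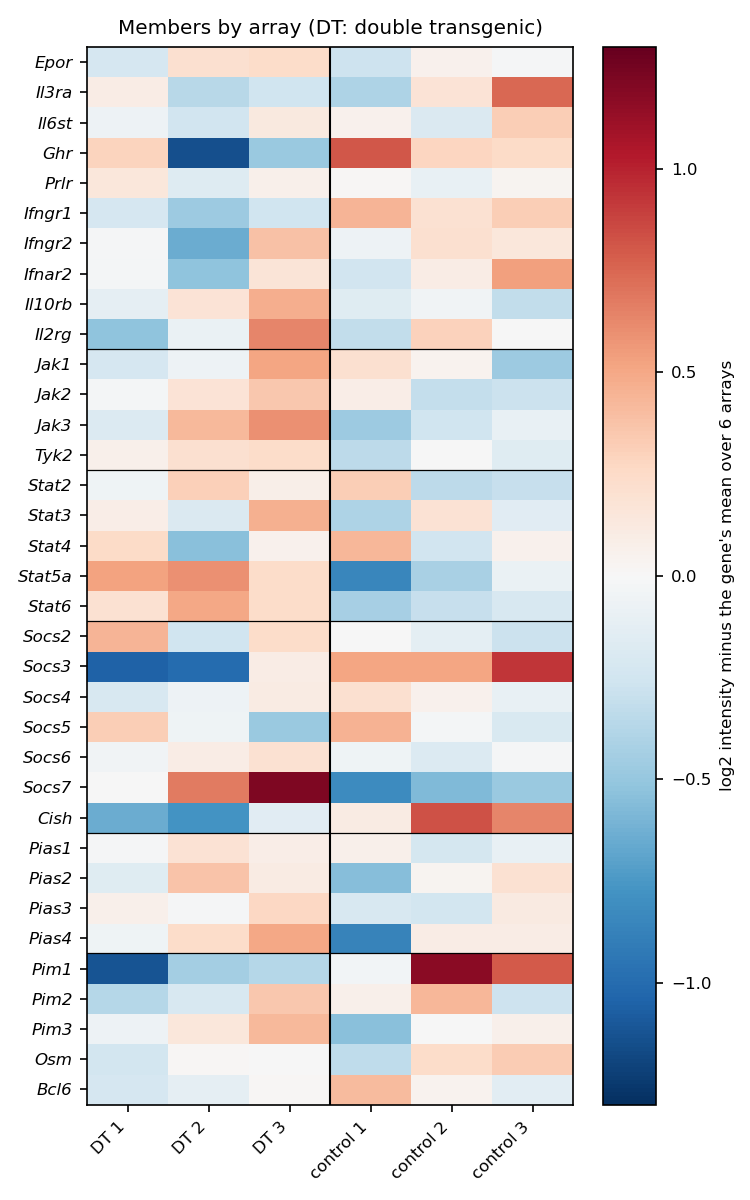
Each member (rows, grouped by role) on each array (columns, DT for double transgenic), coloured by log2 intensity minus the gene's mean over the 6 arrays. Socs3, Cish and Pim1 are bluer on the double transgenic side, Stat5a, Stat6 and Socs7 redder, and most other members vary within groups as much as between them.

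For 16 of the 35 members more than 1 probe was kept, and for 4 of them (Ifnar2, Socs4, Pias3 and Pim1) the probes lay on both sides of 0. Probes of Stat4, Jak3 and Pias1 lay closest together and those of Pim1 and Stat5a furthest apart. When every kept probe was tested, 4 of the 55 member probes passed (Socs7 upward, and Socs3, Cish and Pim1 downward), against 8.1% of all 17855 probes, and the Stat5a probe stood at an adjusted p of 0.0502.

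**Figure D4:**
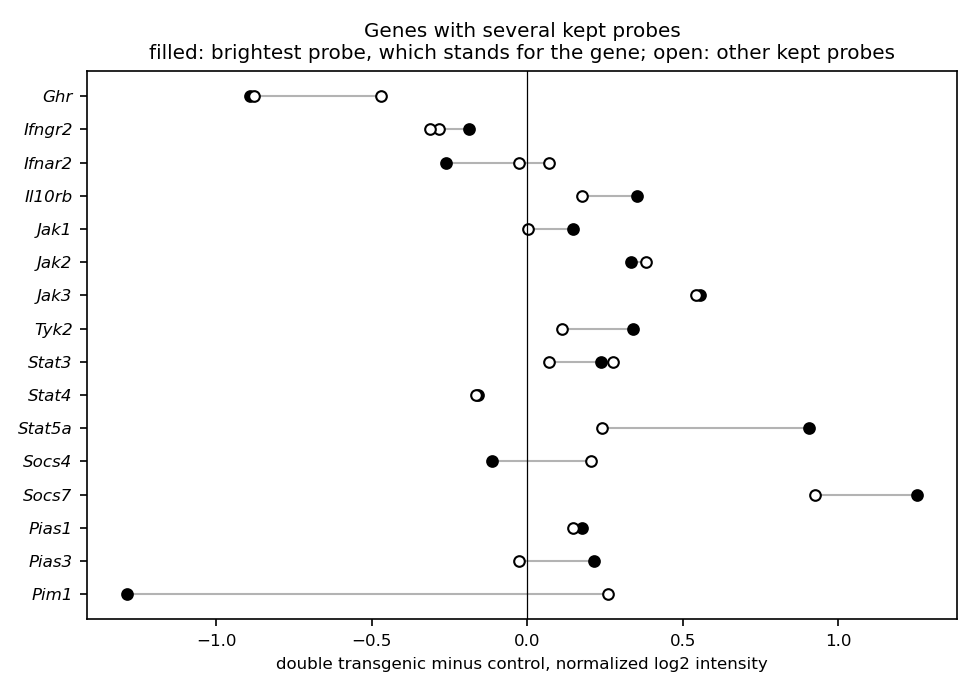
Differences (x axis, double transgenic minus control, log2 intensity) of all kept probes for the 16 members with several; the filled point is the brightest probe, which stands for the gene. Pim1 spans from -1.29 to 0.26 and Stat5a from 0.24 to 0.91.

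Lists of other pathway genes were also counted. Over all 12262 genes 8.93% passed, and 2795 reached an unadjusted p below 0.05. Of 25 further cytokine receptor chains 11 were measured and none passed (0 of 11, with 1 at an unadjusted p below 0.05), with a median of -0.06. Of 20 adaptors and phosphatases of JAK signalling 12 were measured and none passed (2 at an unadjusted p below 0.05), with a median of 0.06. Of 26 ligands of JAK-coupled receptors 6 were measured, 1 rose, and the median was -0.23. The one that rose was Il4, at 8.27, 7.39 and 7.57 in double transgenic livers and 5.72, 5.02 and 4.89 in controls. Il4 was detected on 3 double transgenic arrays and 1 of 3 control arrays, so it was kept only through the group in which it is high. Its difference of 2.53 (SE 0.30, adjusted p = 0.00186) is against controls mostly not above background, and was 1.14 without background correction (adjusted p = 0.00891). Along the IL-4 route, Il4ra was not detected and so has no comparison. Il2rg, Jak1, Jak3 and Stat6 differed by 0.01, 0.15, 0.56 and 0.62 and did not pass, though the Stat6 groups did not overlap (adjusted p = 0.0695). Whether IL-4 signalling changed was not tested.

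Of 19 other genes known to be induced through STAT5 or STAT3, 17 were measured. Among these 5 passed (3 higher and 2 lower), against 8.93% of all genes, and the median was 0.04. The list was chosen with earlier results of these data known, so its share is no support for a change in STAT output. Trib3, a stress-induced pseudokinase, Junb, an immediate early factor, and Ccnd2, a G1 cyclin, rose by 3.65, 1.05 and 0.84 (adjusted p = 0.00147, 0.0123 and 0.0185). Ccnd2 was on the list with the others, but falls outside the 4 with the smallest adjusted p and was chosen for naming after its values were seen. The cyclin gene Ccnd1 fell by 1.74 and Bcl2l1, which encodes BCL-XL, fell by 1.56 (adjusted p = 0.00525 and 0.00672). The call of Junb was lost without control replicate 3 (adjusted p = 0.0565). That of Ccnd2 was lost without double transgenic replicate 3 (adjusted p = 0.0594), control replicate 2 (adjusted p = 0.0782) or control replicate 3 (adjusted p = 0.0904).

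Of 35 interferon-induced genes 22 were measured, and 2 passed, both lower, against 8.93% of all genes (6.4% lower). Of the 22, 14 lay below 0 and 8 above it, and the median was -0.56 against 0.07 over all genes. Psmb9, an immunoproteasome subunit, stood at 5.73, 6.17 and 6.64 in double transgenic livers and 7.12, 7.43 and 7.11 in controls (difference -1.05, adjusted p = 0.0377). Gbp2, a guanylate-binding protein induced by interferon gamma, stood at 6.35, 6.15 and 6.17 in double transgenic livers and 8.83, 7.12 and 7.38 in controls (difference -1.55, adjusted p = 0.0492). For both genes every double transgenic value was lower, and for Gbp2 the Vav-iCre control was well above the other controls. The call of Psmb9 held without double transgenic replicate 3 and was lost without any other single array (adjusted p up to 0.154, without control replicate 2). That of Gbp2 was lost without any 1 of the double transgenic arrays or control replicate 3 (adjusted p up to 0.144, without double transgenic replicate 2). Macrophage and hepatocyte markers were lower as well, and a link of these changes to either was not tested. The lists were chosen with earlier results of these data known.

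The calls in the pathway depended on single arrays. None of the 35 members passed without double transgenic replicate 2 or without control replicate 2, when 620 and 555 of all genes passed. When dim probes were kept, 28898 genes were tested and 3.18% of them passed. Among the members Ifngr1 and Stat6 then passed and none of the 4 did. In the blocked fit 8 members passed, the 4 above with Ghr, Ifngr1, Pim1 and Stat6, against 14.2% of all genes, and 16 rather than 8 genes of the other lists.

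**Figure D5:**
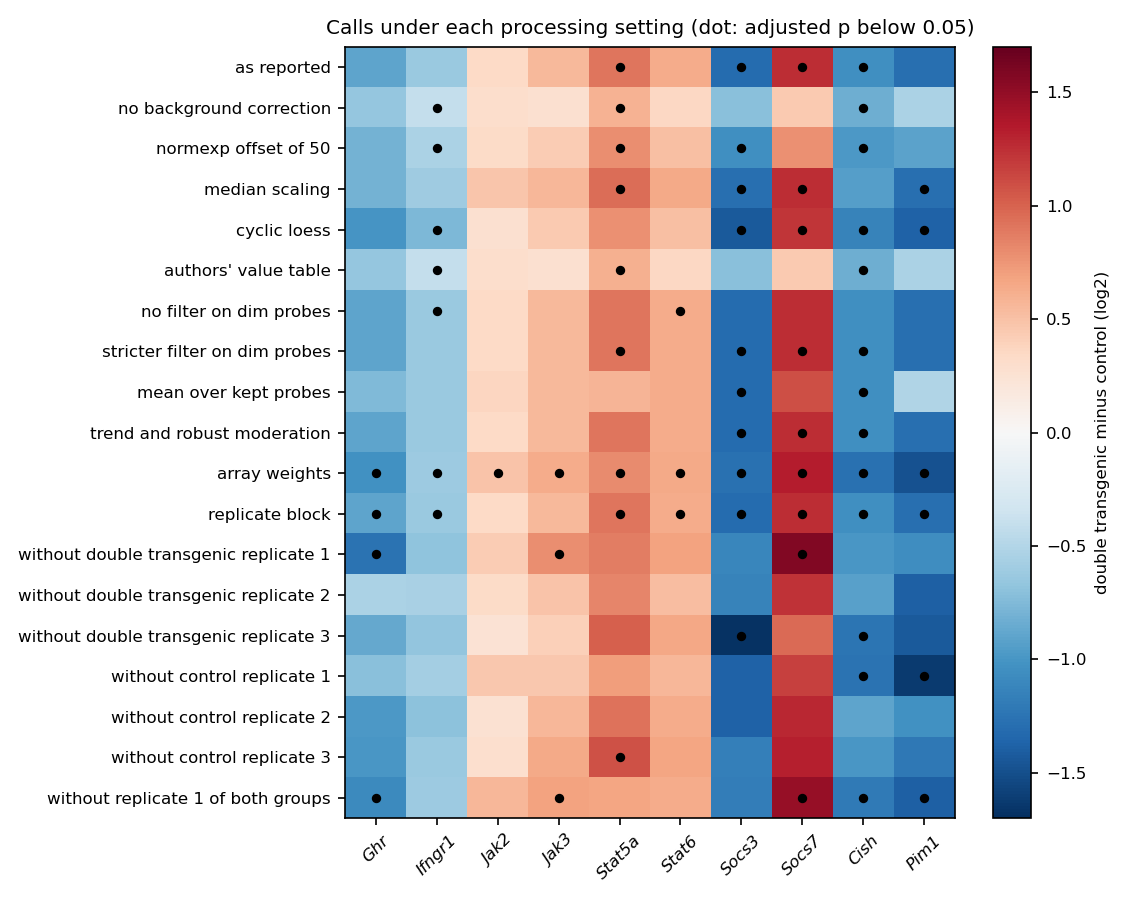
Difference (colour, double transgenic minus control, log2) of the 10 members that passed under at least 1 setting, for the reported values and 18 alternatives (rows); a dot marks an adjusted p below 0.05. The colour of each column keeps its sign in every row, while the dots of Socs3, Cish, Socs7 and Stat5a come and go, and the rows without double transgenic replicate 2 and without control replicate 2 have none.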

How the data were processed

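Total RNA of 6 fetal liver samples was hybridised to Illumina bead arrays after biotin labelling, per the labels' protocols. The table deposited by the authors holds a signal intensity per probe and array, not normalized between arrays, and a detection p-value, per the file headers. The submitters' processing notes name GenomeStudio without a version. A second deposited table of intensity differed from a quantile normalization of that signal by at most 0.303%, which points to quantile normalization by the authors before deposit, and its column medians are near 141. Whether a background was subtracted upstream is unknown.

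The signal was corrected with limma 3.58.1 in R 4.3.3 (normexp, the negative controls estimated through the detection p-values, offset 16), quantile normalized and put on the log2 scale. Probes with a detection p below 0.05 on at least 3 arrays were kept, and the probe with the highest mean stood for its gene. Symbols were updated through RefSeq's gene table, whose promoter windows held 33 of the 42 members. The groups were compared by limma's two-sided moderated test (lmFit, eBayes), and p-values were adjusted by Benjamini-Hochberg over 12262 genes. The steps were tested on simulated data. Each gene's group mean was subtracted, and the remaining deviations of same-numbered arrays were correlated across genes. These correlations were 0.536, 0.283 and 0.206 for numbers 1, 2 and 3. Deviations within a group cancel out, so the correlations are not independent of one another. Number 2 of the double transgenic group correlated more with control number 3 (0.371), and its number 3 nearly as much with control number 2 (0.197). Control number 1 was also the only Vav-iCre control, so its number and genotype cannot be told apart. The numbers, which come from the titles, were used as a block in 1 alternative. Others were the background correction, normalization, probe filter, probe choice, moderation, array weights and left-out arrays. Values on every array are given for members past the threshold in either fit and for a fixed set of core members, and of each other list up to 4 genes past the threshold. The members and lists were chosen with earlier results of these data known. The number of arrays limits the precision.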

Additional observations from a re-analysis of the deposited data

How the results depend on the processing

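The 4 member calls kept their direction in all 18 alternatives, but not their side of the threshold. The count of members higher (2) became 1 without background correction, with a normexp offset of 50, with cyclic loess, in the authors' value table, with trend and robust moderation and with no filter on dim probes, 0 with the mean over kept probes and 5 with array weights. The count of members lower (2) became 4 with cyclic loess, 1 with no filter on dim probes and 5 with array weights or the replicate block. These counts hide exchanges: of the 4 reported calls, Cish and Stat5a remained in the authors' value table and without background correction (Ifngr1 joined), Cish and Socs3 with the mean over kept probes, none with no filter on dim probes (Ifngr1 and Stat6 passed), and all but Cish with median scaling (Pim1 joined). Over all genes 1743 passed with the replicate block, 2749 with array weights and 1830 without replicate 1 of both groups, against 1095. Of the other pathway lists 8 genes passed, and 16, 21 and 14 under these settings. Of member probes 4 passed, and 8 with the replicate block. Leaving out single arrays gave 0 to 2 members higher, 0 to 2 lower, 555 to 1395 genes and 4 to 14 genes of the other lists. With no filter on dim probes 28898 genes were tested, of which 3.18% passed. The cause of the changes under these settings was not tested.

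Signs turned only in members far from the threshold, of which Pias2 had the smallest adjusted p (0.659). Prlr stood at -0.00954 with median scaling, -0.0821 with cyclic loess and -0.0183 without replicate 1 of both groups. Il2rg stood at -0.0101, -0.0456 and -0.0572 with median scaling, cyclic loess and array weights, and Socs4 at 0.0454 with the mean of its probes and 0.0432 without replicate 1 of both groups. Over the fits without single arrays the ranges were -0.0333 to 0.122 for Prlr, -0.30 to 0.279 for Il2rg, -0.248 to 0.00476 for Il6st, -0.427 to 0.0901 for Ifngr2, -0.0695 to 0.296 for Jak1, -0.321 to 0.0752 for Stat4, -0.346 to 0.0554 for Socs5, -0.0102 to 0.369 for Pias2 and -0.365 to 0.0228 for Pim2. The 7 members detected on fewer than 3 arrays have no comparison.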
